A study of Homo sapiens with 8 samples.

Results

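The bulk RNA-seq library of PC9-MGH was compared with that of PC9-VU along the chromosomes, as 2 of the 8 libraries of the series. PC9 is a human lung adenocarcinoma cell line that grows on signals from a mutant epidermal growth factor receptor (EGFR). PC9-VU was cultivated at Vanderbilt University and PC9-MGH at Massachusetts General Hospital, and the latter was acquired and labeled separately. Both carry an EGFR exon 19 deletion without the T790M resistance mutation, express the nuclear label H2BmRFP, and were untreated cultures in RPMI medium with 10% serum at passages 8 to 10. The other 6 libraries serve as a measure of spread. They come from PC9-BR1, a T790M-positive line made from PC9-VU by raising the dose of afatinib, an EGFR inhibitor, and from 5 clonal sublines of PC9-VU without T790M (DS3, DS6, DS7, DS8, DS9), each begun from 1 cell. PC9-BR1 and the sublines share the exon 19 deletion and the label. The labels name poly-A RNA, and 200 ng of total RNA was depleted of ribosomal RNA and read as pairs of 150 bases.

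Rows of the count table were ordered by the position of the gene each is named for. Of 22664 named rows, 22441 bear the name of 1 gene on chromosome 1 to 22 or X, and the 4591 of these with a mean of at least 50 counts over the 8 libraries were used. They hold 97.9% of the counts of named rows in both libraries, with a median of 272 counts per row in PC9-VU and 222 in PC9-MGH. Named rows sum to 3497722 counts in PC9-VU and 2891578 in PC9-MGH, within the range of 2717355 to 3497722 over the 8 libraries. Each value is a difference in log2 CPM (CPM, counts scaled to the library total with TMM factors, with a prior count of 2 added), PC9-MGH minus PC9-VU, so that 1 means 2-fold higher in PC9-MGH. Rows lie on 41 chromosome arms, and the 40 arms with at least 20 rows are described.

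The name of a row does not identify the transcript that was counted. Of 77 rows named for ribosomal proteins, which every growing cell makes in large amounts, 53 have a mean under 10 counts. Of 350 rows named for olfactory receptors, which are silent outside the nose for the most part, 23 have at least 10. No gene is therefore read from a row and the cell type could not be checked by its markers. Positions are those of the named genes in hg38, and what was counted may lie some distance away.

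A human chromosome carries many genes whose transcripts tend to follow the number of copies of the segment they lie on, so a gained or lost segment can raise or lower a run of neighbouring genes together. Epithelial cancer lines carry many such gains and losses and can acquire more in culture, so that stocks of a line kept in different laboratories may diverge. Other events, such as a changed chromatin domain or a shared regulator of a gene cluster, also move neighbours together. RNA counts alone do not tell these apart. Each population has 1 library, so no difference could be set against replicates, no p-value is given, and the population, its culture and its library cannot be told apart. In bulk RNA, fewer cells that carry a transcript and less of it per cell cannot be told apart either.

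The TMM factors bring the libraries to a common level, so the centre of the differences over all rows is set by the scaling. It does not show whether PC9-MGH was higher or lower than PC9-VU as a whole. The median difference was 0.01 on the log2 scale, the quartiles were -0.38 and 0.36, and 2329 rows (50.7%) were higher. At least 2-fold higher were 270 rows (5.88%) and at least 2-fold lower 337 rows (7.34%). At least 1.5-fold higher were 693 rows (15.1%) and at least 1.5-fold lower 747 rows (16.3%). In the other libraries, which share PC9-VU as the reference, 13 to 92 rows were at least 2-fold higher and 35 to 112 at least 2-fold lower. PC9-MGH was the highest of the 8 libraries in 1264 rows (27.5%) and the lowest in 1084 rows (23.6%). These shares are the background for each count given below.

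Neighbouring rows differed in more similar ways than distant ones. The differences of rows next to each other on a chromosome had a Pearson correlation of 0.26 over 4568 pairs. It was 0.12 for rows 5 apart, 0.06 for rows 25 apart, -0.04 for rows 100 apart, and -0.01 for 2035 pairs on different chromosomes. This likeness was not particular to PC9-MGH. For rows next to each other, the other libraries against PC9-VU had 0.15 (DS3) to 0.40 (PC9-BR1), with DS8 at 0.30. Neighbouring rows share regions and may share transcripts, so these correlations describe the table. Differences between arms made up 5.39% of the variance over rows in PC9-MGH against PC9-VU. This was the lowest share, since the other libraries against PC9-VU ranged from 9.07% (DS3) to 15.9% (DS8), with PC9-BR1 at 13.9%.

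Medians of 25 consecutive rows show where the runs lie. Such a window spans a median of 10.3 Mb, from 0.578 Mb in dense regions to 109.9 Mb in sparse ones. Of 4039 windows, 648 (16.0%) had a median at least 0.3 higher in PC9-MGH and 591 (14.6%) at least 0.3 lower, where 0.3 on the log2 scale is 1.23-fold. Among 173 windows that share no rows, 29 were higher and 27 lower. The farthest medians were 1.19 and -1.19. In the other libraries, against the same PC9-VU, the windows that passed the threshold ranged from 0% in DS3 to 6.88% in PC9-BR1 for the higher and from 2.72% in DS3 to 10.3% in PC9-BR1 for the lower. In 552 of the higher and 509 of the lower windows, PC9-MGH also lay beyond all 6 other libraries.

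**Figure D1:**
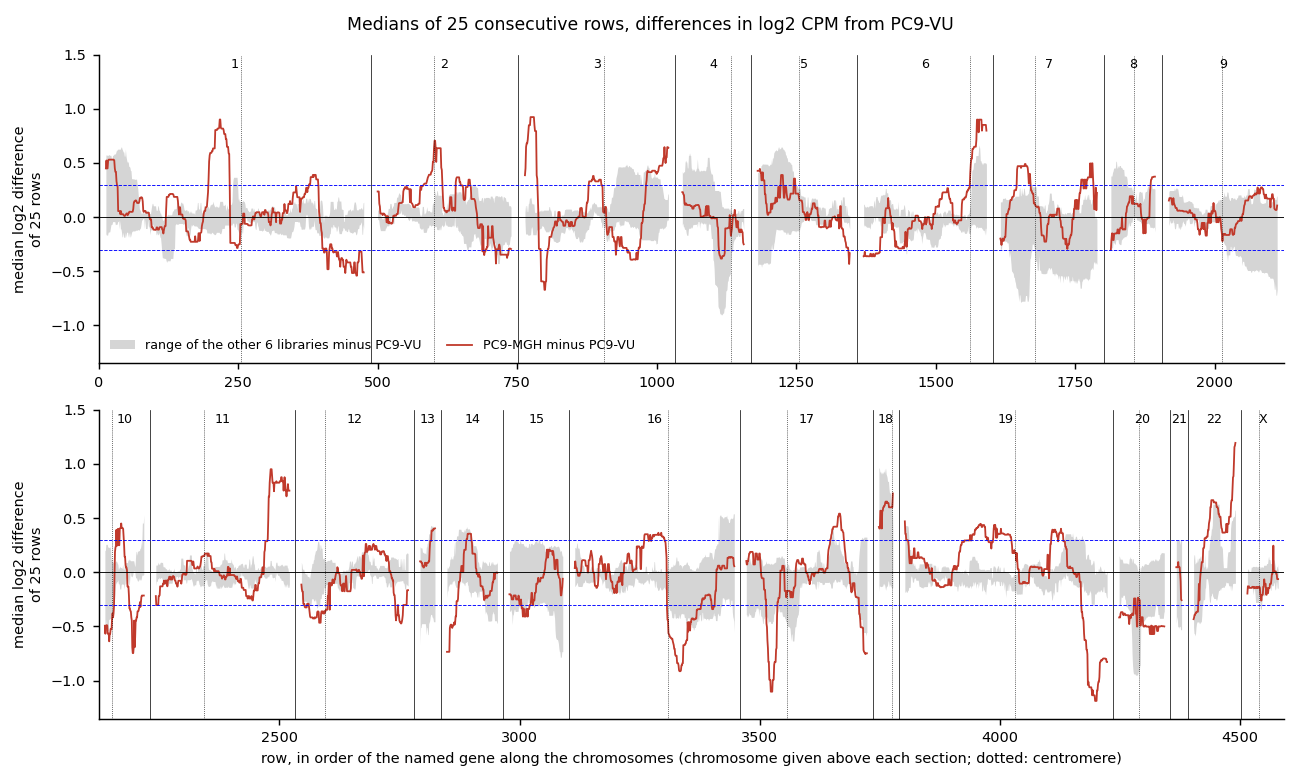
Median difference in log2 CPM of 25 consecutive rows (vertical axis) against the row number in chromosome order (horizontal axis). The red line is PC9-MGH minus PC9-VU, the grey band is the range of the other 6 libraries minus PC9-VU, dashed lines mark 0.3 and -0.3, and dotted lines mark centromeres; the red line leaves the band in both directions, to 1.19 at the end of 22q and to -1.19 near the end of 19q.

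Consecutive windows past the threshold merged into 24 higher and 21 lower stretches, which together hold 2387 rows (52.0%). Higher stretches lay on 16 chromosomes, lower ones on 17, and both kinds on 13. Chromosomes 9, 21 and X held no window past the threshold. Because windows overlap, 111 rows at the edges belong to stretches of both directions.

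Arm medians ranged from -0.50 for 20q to 0.76 for 6q. With a threshold of 0.2 (1.15-fold), 6 arms were higher, 6 were lower and 28 were neither. The interval given with each median is the 95% interval from order statistics over rows. It describes the rows of this pair of libraries and not the spread between replicates. These intervals lay above 0 for 11 arms, below 0 for 9 and across 0 for 20. Neighbours in the order of the 6 highest arms and of the 6 lowest arms had overlapping intervals. Of the 12 arms past the threshold, 9 lay outside 0 and the range of the other 6 libraries minus PC9-VU. Over all 40 arms described, 22 lay outside. For 10p and 16q the margin was small, at -0.490 against -0.486 in DS3 and -0.409 against -0.397 in DS9. Taken directly against each of the other 7 libraries, PC9-MGH was on the same side in all of them for 7 of the 12 arms. On 16q its median was 0.04 against DS8 and 0.03 against DS9, so it was not lower than these.

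Arm 6q had the highest median, 0.76 over 42 rows (interval 0.58 to 0.96), which is 1.70-fold. Its rows held 0.251% of the counts in PC9-VU and 0.469% in PC9-MGH, with exact binomial 95% intervals of 0.245% to 0.256% and 0.462% to 0.478%, which cover counting error only. In the other libraries the same rows held 0.229% to 0.384%, the highest in DS8. Of the 42 rows, 36 were higher in PC9-MGH, 13 were at least 2-fold higher (31.0%, against 5.88% of all rows), and PC9-MGH was the highest of the 8 libraries in 28. The other populations had medians from -0.09 to 0.07 against PC9-VU, except DS8 at 0.50. Against each of the other 7 libraries, PC9-MGH was higher on 6q, by 0.22 (DS8) to 0.86 (DS3). The arm is thinly covered, since 8.47% of its named rows passed the filter on counts.

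Arm 18p followed with a median of 0.58 over 39 rows (interval 0.27 to 0.66). Its rows held 1.14% of the counts in PC9-VU, 1.55% in PC9-MGH and 2.30% in DS8, and between 1.045% and 1.115% in the other libraries. PC9-MGH thus lay between DS8, with a median of 0.98 against PC9-VU, and the others, with -0.15 to -0.02. It was the highest of the 8 libraries in 5 of the 39 rows and the lowest in 1. Arm 18q has 15 rows, too few for the arms described here, and with them chromosome 18 had a median of 0.57 over 54 rows, of which 44 were higher in PC9-MGH and 6 at least 2-fold higher.

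Arm 22q had a median of 0.37 over 112 rows (interval 0.22 to 0.51) and its rows held 1.52% of the counts in PC9-VU and 2.06% in PC9-MGH. The other 6 libraries held 1.44% to 1.62%, below PC9-MGH in every case. They had medians between -0.09 and 0.05 against PC9-VU. The arm was not uniform, with 22 rows at least 2-fold higher and 11 at least 2-fold lower, and it is taken up again with the steps within arms. Without a filter on counts its median was 0.19, under the threshold.

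The remaining higher arms were 5p, 8q and 7p, and all of these depended on the filter on counts, among other settings. With a minimum mean of 10 counts their medians were 0.18, 0.13 and 0.16, and without a filter 0.15, 0.11 and 0.18, under the threshold of 0.2. Arm 5p had a median of 0.31 over 86 rows (interval 0.12 to 0.44), with DS8 at 0.49 and PC9-BR1 at -0.21 against the same PC9-VU. Without rows within 3 Mb of the centromere or the end, the median of 5p was 0.18. Its rows went both ways, since 10 were at least 2-fold higher and 11 at least 2-fold lower (12.8%, against 7.34% of all rows). Arm 8q had a median of 0.30 over 50 rows, with an interval of -0.02 to 0.39 and PC9-BR1 at 0.24, and without rows within 3 Mb of the centromere or the end its median was -0.0052. The arm median of 8q was therefore set by its end, where 17 rows from 142.8 Mb onward had a median of 0.51.

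Arm 7p, which carries EGFR, had a median of 0.22 over 74 rows (interval 0.12 to 0.29). It was under 0.2 also after thinning to the smallest library (0.187) and after correction for GC content (0.194). Against the median of PC9-VU and the 6 populations derived from it, the value was 0.13. The populations spread widely here, with DS8 at -0.38, DS9 at -0.21 and the others at 0.06 to 0.16 against PC9-VU. Within 7p, the 31 rows up to 8.09 Mb had a median of -0.20 with an interval that spans 0 (-0.35 to 0.13). The 43 rows from 10.97 Mb had a median of 0.44 (0.22 to 0.61). Rows of the former side held 2.035% of the counts in PC9-VU and 2.356% in PC9-MGH, the other way from their median. Rows of the latter side held 2.11% and 2.75%. The largest row held 36.85% of the counts of 7p in PC9-MGH. No row is read as EGFR itself. On 7q the median was 0.02, while DS6, DS7 and DS9 lay between -0.51 and -0.43. Within 7q, 46 rows from 107.6 Mb to 151.9 Mb had a median of 0.27 in PC9-MGH (interval 0.02 to 0.51), with 32 higher.

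Arm 20q had the lowest median, -0.50 over 66 rows (interval -0.61 to -0.41), and 20p had -0.38 over 53 rows (-0.53 to -0.23). Rows of 20q held 1.76% of the counts in PC9-VU and 1.27% in PC9-MGH, and rows of 20p 1.28% and 0.892%. The other libraries held 1.47% to 1.93% on 20q and 0.998% to 1.43% on 20p, in each case more than PC9-MGH. Of the 119 rows of chromosome 20, 21 were higher in PC9-MGH, and 90.5% of its windows passed -0.3. All windows of the chromosome were lower, between -0.57 and -0.23. The 15 rows of 20p from 17.94 Mb to 25.39 Mb were less so, at -0.14 with an interval that spans 0 (-0.57 to 0.14). Over these rows PC9-BR1 had -1.06 against PC9-VU. On whole arms PC9-BR1 was also lower, at -0.32 on 20q and -0.35 on 20p against PC9-VU, while DS3 had 0.10 on 20q and -0.25 on 20p. On 20q, 10 rows were at least 2-fold lower, and 7 of the 8 rows that were higher were so by at least 2-fold.

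Arm 10p had a median of -0.49 over 28 rows (interval -0.79 to -0.37), and 3 of its rows were higher in PC9-MGH. Its rows held 0.321% of the counts in PC9-VU, 0.219% in PC9-MGH, 0.234% in DS3 and 0.244% in PC9-BR1, against 0.343% to 0.3755% in DS6, DS7, DS8 and DS9. The populations thus fell into a low group of 3 libraries and a high group of 5. Medians against PC9-VU were -0.44 for PC9-BR1 and -0.49 for DS3, so PC9-MGH was not set apart from these on 10p.

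Arm 16q had a median of -0.41 over 151 rows (interval -0.51 to -0.25), with 2.69% of the counts in PC9-VU and 1.81% in PC9-MGH. DS8 and DS9 had nearly the same medians against PC9-VU, -0.39 and -0.40, and held 1.95% and 2.17% of the counts. The other libraries held 2.735% to 3.08%. The rows that were lower were not spread evenly along the arm. The 67 rows up to 68.3 Mb had a median of -0.61, with 3 higher in PC9-MGH, and the 84 rows from 68.64 Mb had -0.13, with 37 higher. On 13q, where DS8 and DS9 had -0.42 each, PC9-MGH had 0.13 over 56 rows.

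Arms 12p and 21q were the last of the lower ones. Arm 12p had a median of -0.32 over 61 rows (interval -0.42 to -0.16), with DS3 at -0.26 and PC9-BR1 at -0.11, and from summed counts its difference was -0.19. Taken directly against DS3, PC9-MGH had a median of 0.0084 on 12p, so it was not lower than DS3. Arm 21q had -0.21 over 36 rows with an interval of -0.49 to 0.14, and the populations ranged from -0.49 (DS8) to 0.30 (DS3). Its rows held 0.285% of the counts in PC9-VU and 0.332% in PC9-MGH, so that the summed counts went the other way from the median. No direction is read for 21q.

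**Figure D2:**
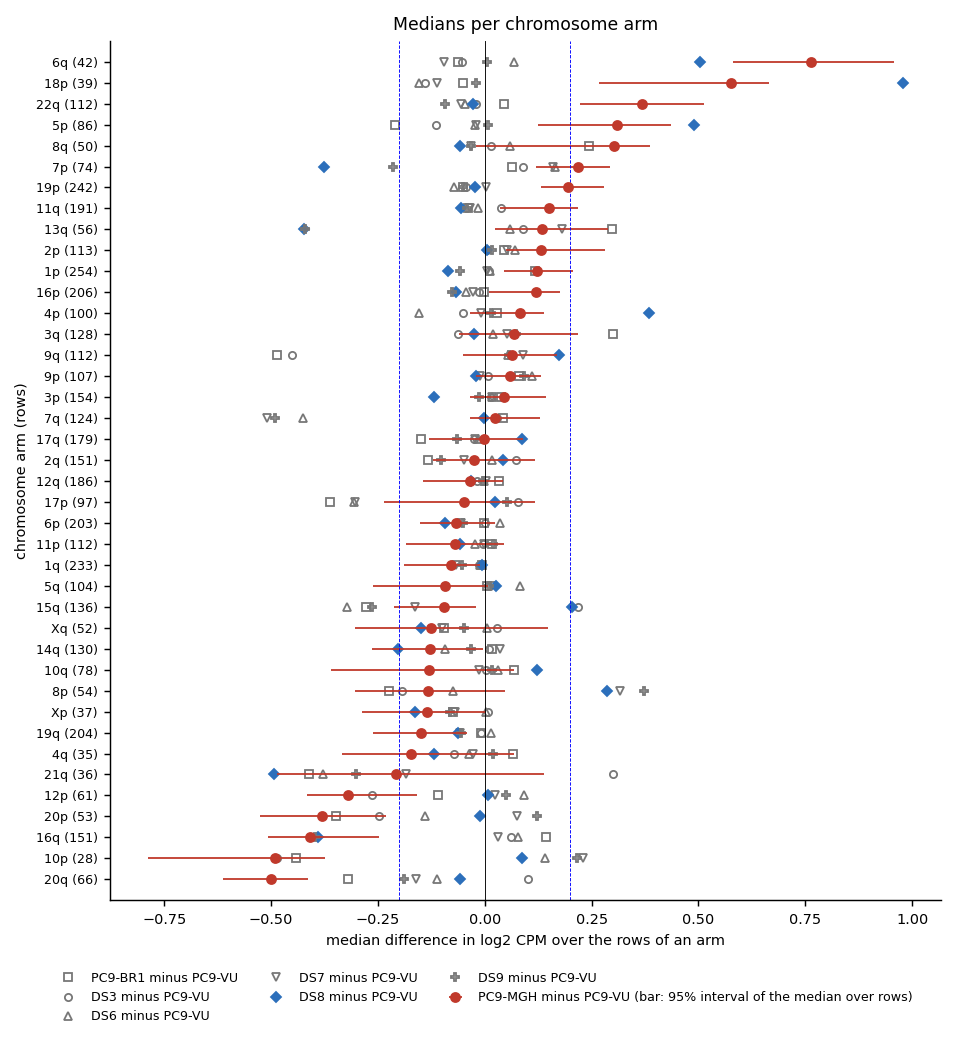
Median difference in log2 CPM (horizontal axis) for each of the 40 arms with at least 20 rows (vertical axis, number of rows in brackets), with red points for PC9-MGH minus PC9-VU and bars for the 95% interval of the median over rows. Open and grey symbols are the other populations minus PC9-VU with DS8 in blue, and dashed lines mark 0.2 and -0.2; 6q, 22q and 20q lie clear of the others, while DS8 exceeds PC9-MGH on 18p and 5p.

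Several arms that were neither higher nor lower as a whole were mixed. For each arm, the point was found that best divides its rows into a side before and a side after, with at least 15 rows on each. The points were placed on these same values, so the sides describe them and are no test. Ranked by the size of the step between the medians of the sides, the widest were those of 19q, 22q, 11q, 17q, 10q, 3p, 3q and 14q, and of these arms only 22q passed the arm threshold.

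The end of 19q held the farthest lower window. This region, rich in clusters of zinc finger transcription factor genes, had a median of -1.04 over 59 rows from 50.43 Mb to 58.05 Mb (interval -1.19 to -0.80), which is 2.05-fold lower. These rows held 2.13% of the counts in PC9-VU, with an exact interval of 2.12% to 2.15%, and 1.03% in PC9-MGH, with 1.02% to 1.04%. The other 6 libraries held between 1.90% and 2.17%, so none came near PC9-MGH. Their medians against PC9-VU were -0.20 for PC9-BR1 and between -0.07 and -0.01 for the sublines. None of the 59 rows was higher in PC9-MGH, 31 were at least 2-fold lower, and PC9-MGH was the lowest of the 8 libraries in 54.

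The rest of chromosome 19 did not share this. The 145 rows of 19q up to 50.03 Mb had a median of 0.05, with 82 higher in PC9-MGH, and held 4.74% of the counts in PC9-VU and 4.97% in PC9-MGH. The chromosome also held 3 higher stretches, of which 1 lay at the start of 19p. The longest, from 7.83 Mb to 32.83 Mb, had a median of 0.35 over 110 rows, with the other libraries at -0.08 to -0.0024, and PC9-MGH was the highest library in 70 of them. Another, from 41.75 Mb to 48.47 Mb, had 0.33 over 49 rows. The median of the whole chromosome, 0.08 over 446 rows, shows neither the low end nor the higher stretches.

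Arm 22q changed direction within itself. The 22 rows up to 23.32 Mb had a median of -0.52 (interval -1.08 to -0.36) and all were lower in PC9-MGH. The 90 rows from 23.46 Mb to 50.31 Mb had a median of 0.51 (0.39 to 0.67), and 75 of them were higher. The shares of counts moved in opposite directions, from 0.270% in PC9-VU to 0.167% in PC9-MGH on the former side and from 1.25% to 1.89% on the latter. DS8 was also low on the former side, with a median of -0.51 and 0.184% of the counts, while on the latter side the other libraries lay between -0.12 and 0.09. The last 25 rows of the chromosome, from 41.8 Mb, formed the farthest higher window of the genome at 1.19. Of these 25 rows, 16 were at least 2-fold higher, against 5.88% of all rows. PC9-BR1 had 0.57 over those 25 rows and the sublines -0.10 to 0.09.

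On 11q, the 63 rows from 77.51 Mb to 134.4 Mb had a median of 0.81 (interval 0.70 to 0.98), or 1.76-fold, and 58 were higher in PC9-MGH. The 128 rows up to 77.13 Mb had a median of -0.04, with 56 higher. Rows of the higher side held 0.814% of the counts in PC9-VU, 1.36% in PC9-MGH and 0.779% to 0.847% in the other 6 libraries. PC9-MGH was the highest of the 8 libraries in 53 of the 63 rows. The other populations had medians between -0.03 and 0.05 against PC9-VU, so the higher end of 11q was seen in PC9-MGH only among these libraries.

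Chromosome 17 had a lower region on each arm and a higher one between them. The 29 rows of 17q from 78.26 Mb to 83.05 Mb had a median of -0.74 (interval -1.12 to -0.44), with 27 lower and 10 at least 2-fold lower. They held 0.450% of the counts in PC9-VU, 0.271% in PC9-MGH and 0.311% in PC9-BR1, which had a median of -0.59, and 0.3845% to 0.577% in the sublines. Both PC9-MGH and PC9-BR1 were therefore below the sublines at this end. On 17p, a window of 25 rows from 7.405 Mb to 9.89 Mb had a median of -1.10, with 13 rows at least 2-fold lower. Its rows held 2.12% of the counts in PC9-VU and 1.44% in PC9-MGH, against 1.69% to 2.32% in the others. DS7, PC9-BR1 and DS6 were also low over this window, at -0.47, -0.36 and -0.32 against PC9-VU. The whole lower stretch of 17p, 47 rows from 5.486 Mb to 18.41 Mb, had a median of -0.41 with an interval that spans 0 (-0.86 to 0.12), and 19 of its rows were higher. Taken directly over this stretch, PC9-MGH hardly differed from PC9-BR1, DS6 and DS7, at -0.03, 0.01 and 0.05. Against DS3, DS8 and DS9 it had -0.45 to -0.31. Between these regions of 17p and 17q, 53 rows from 45.39 Mb to 66.19 Mb had a median of 0.31, with 41 higher. The arm medians, -0.05 on 17p and -0.0029 on 17q, show none of this.

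Chromosome 10 had its higher rows in the middle. After the low 10p, the 31 rows of 10q up to 86.37 Mb had a median of 0.40 (interval 0.07 to 0.66) and the 47 rows from 87.86 Mb a median of -0.42 (-0.65 to -0.21). The shares of counts were 0.387% in PC9-VU and 0.480% in PC9-MGH on the former side, and 0.634% and 0.454% on the latter. In the other libraries the former side held 0.352% to 0.407% and the latter 0.618% to 0.786%. PC9-MGH thus lay outside the other 7 libraries on both sides of 10q, in opposite directions.

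Chromosome 3 held 5 stretches that alternated in direction, more than any other chromosome. The 36 rows of 3p up to 28.33 Mb had a median of 0.74 (interval 0.35 to 0.94), and 31 were higher in PC9-MGH. They held 0.376% of the counts in PC9-VU, 0.539% in PC9-MGH and 0.343% to 0.398% in the others. Overlapping the end of this side, a window of 25 rows from 28.24 Mb to 39.11 Mb had a median of -0.67. On 3q, the 72 rows up to 157.4 Mb had a median of -0.28 (-0.39 to -0.12) and the 56 rows from 161.5 Mb a median of 0.47 (0.34 to 0.65). PC9-BR1 was higher against PC9-VU on both sides of that step, by 0.39 and 0.29, where the sublines lay between -0.09 and 0.09. The former side of 3q thus separated PC9-MGH from PC9-BR1, while on the latter side both were higher than PC9-VU.

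On 14q, the 25 rows up to 35.93 Mb had a median of -0.73 (interval -0.93 to -0.48), with 5 higher in PC9-MGH and 5 at least 2-fold lower. They held 0.257% of the counts in PC9-VU, 0.171% in PC9-MGH and 0.237% to 0.260% in the others. The 105 rows from 44.76 Mb had a median of -0.02, with 47 higher. The lower stretch ran on to 55.19 Mb, with a median of -0.49 over 44 rows, and a higher one from 54.84 Mb followed it. Over the first 25 rows, DS8 had a median of -0.23 and the other libraries had -0.08 to 0.03 against PC9-VU.

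**Figure D3:**
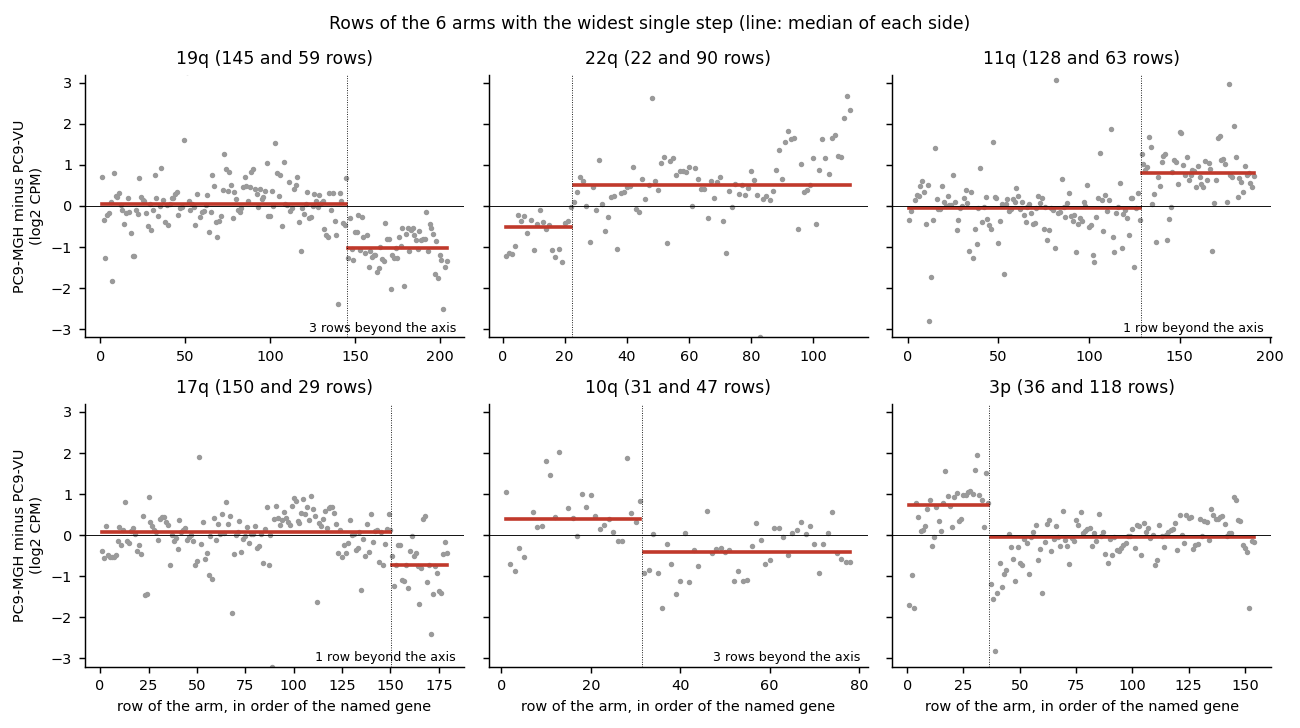
PC9-MGH minus PC9-VU in log2 CPM (vertical axis) for every row of the 6 arms with the widest step, in order along the arm (horizontal axis), with red lines for the median of each side. In 19q all 59 rows after the step lie below 0, and in 11q 58 of 63 lie above it; rows beyond the axis are counted in each panel.

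**Figure D4:**
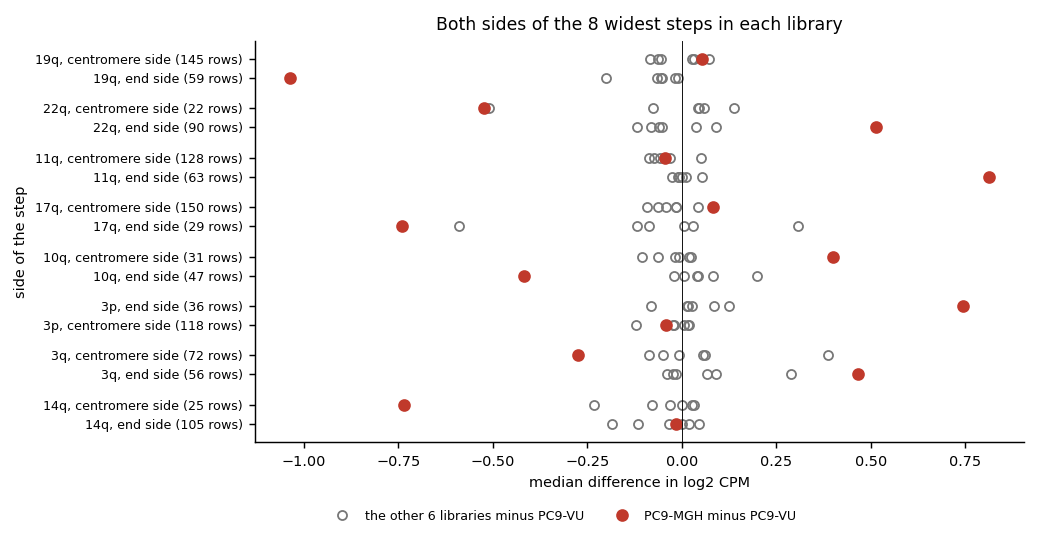
Median difference from PC9-VU in log2 CPM (horizontal axis) on both sides of the 8 widest steps (vertical axis), with filled points for PC9-MGH and open points for the other 6 libraries. On 1 side of 19q, 11q, 3p and 14q PC9-MGH is far from the others and on the other side near them; on 10q it lies outside them on both sides.

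Chromosome 1 held a higher region on 1p and a lower one on 1q that nearly cancelled in its median of 0.02 over 487 rows. The 60 rows of 1p from 67.14 Mb to 121.2 Mb had a median of 0.61 (interval 0.39 to 0.82), with 45 higher, 14 at least 2-fold higher and none at least 2-fold lower. They held 0.618% of the counts in PC9-VU and 0.806% in PC9-MGH. The 89 rows of 1q from 193.2 Mb had a median of -0.46 (-0.55 to -0.31), with 16 higher and PC9-MGH the lowest of the 8 libraries in 54. They held 0.989% in PC9-VU and 0.701% in PC9-MGH. The other libraries lay between -0.0031 and 0.10 on the former and between -0.09 and 0.035 on the latter. The start of 1p was different, since PC9-BR1 had 0.59 against PC9-VU over 44 rows from 0.779 Mb to 6.59 Mb and PC9-MGH 0.35.

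Chromosome 2 was divided in a like way. A stretch of 107 rows across the centromere, from 69.01 Mb to 181.9 Mb, had a median of 0.32, with 78 higher, 17 at least 2-fold higher and none at least 2-fold lower. The 73 rows of 2q from 185.7 Mb had a median of -0.30 (interval -0.45 to -0.22), with 13 at least 2-fold lower and none at least 2-fold higher. The other populations ranged from -0.07 to 0.04 in the former and from -0.21 to 0.15 in the latter.

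Chromosome 6 had a lower start as well as its higher long arm. The 54 rows of 6p from 0.292 Mb to 13.98 Mb had a median of -0.34, with 16 higher and 9 at least 2-fold lower, while the other libraries had 0.01 to 0.10. Chromosome 16 showed the reverse order. A stretch of 66 rows from 24.54 Mb to 47.7 Mb had a median of 0.30, with 43 rows highest in PC9-MGH, and was followed by the lower region of 16q. On 12q, 48 rows from 112 Mb to 132.2 Mb had a median of -0.29, against -0.10 to 0.04 in the others.

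Some regions that set other populations apart showed no difference of this size in PC9-MGH. On 9q, where PC9-BR1 and DS3 had medians of -0.49 and -0.45 against PC9-VU, PC9-MGH had 0.06 over 112 rows. On 15q as a whole, which ranged from -0.32 in DS6 to 0.22 in DS3, PC9-MGH had -0.10 over 136 rows (interval -0.21 to -0.02). Part of 15q was lower, since 52 rows from 40.98 Mb to 63.83 Mb had -0.28 in PC9-MGH (interval -0.41 to -0.11). Over these rows PC9-BR1, DS6, DS7 and DS9 had -0.28 to -0.24 against PC9-VU, and DS3 and DS8 had 0.23 and 0.27. The 2 arms of chromosome X had -0.13 each, within the range of the other libraries. The shares of counts on Xq did differ from all others, at 1.06% in PC9-MGH against 1.48% in PC9-VU and 1.325% to 1.63% in the other 6. On 4p, where DS8 had 0.38, PC9-MGH had 0.08.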

How the data were processed

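The authors mapped read pairs to hg38 with STAR (version 2.5.2b), counted them with featureCounts (version 1.6.4), and deposited raw read counts per row with gene symbols as row names; strandedness is not given in the sources used here. Of 30988 rows, the 8324 without a symbol were left out, which hold 4.38% of the counts in PC9-VU and 4.39% in PC9-MGH. All columns were used, as 1 library per population.

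Log2 CPM values were computed in R (version 4.3.3) with edgeR (version 4.0.16), TMM factors of all 8 libraries and a prior count of 2. For the bulk libraries, the paper's methods use the rlog function of DESeq2, so its size factors (version 1.42.0) were an alternative. Rows were matched to GENCODE (release 44) by symbol or by RefSeq synonyms (GRCh38.p14), ordered in Python (version 3.11.15), and cut into arms at centromere positions in whole Mb, none inside a gene. Medians were taken per arm, per chromosome and per window of 25 rows. No test between libraries was possible. The computation of arm and window medians was tested on simulated data. Named arms and stretches are the 6 farthest in each direction, and chromosomes with arms at least 0.3 apart or with stretches of both directions were described by their windows. The steps within arms, the comparisons by their sides and the regions in which other populations differ were chosen after values were seen. Members, thresholds and lists were chosen with earlier results of these data known. The alternatives covered scaling, the filter on counts, the prior count, depth, GC content, level, the reference, rows near centromeres and ends, overlapping named genes, summed counts, window size and thresholds.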

Additional observations from a re-analysis of the deposited data

How the results depend on the processing

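No paired analysis was possible because each population has 1 library, and there were no replicates to leave out. Over the 14 alternatives for arms, 545 of 560 arm values stayed within the interval of the median as reported and 15 left it. The sign changed in 31, of which 27 belong to 13 of the 28 arms that were neither higher nor lower, with medians of up to 0.13 in size. All 40 arms stayed within it under DESeq2 size factors, centring, a prior count of 0.5, thinning to the smallest library and corrections for GC content and level. For the 12 stretches described, 155 of 156 values stayed within the interval, and none changed sign. The stretches were drawn on these same values and their bounds were kept fixed, so this describes them and is no test. Among the 12 arms past the threshold, the values that changed sign were those of arm 21q (chromosome 21), at 0.0419 with a minimum mean of 200 counts, 0.0177 without a filter and 0.224 from summed counts, and of arm 8q, at -0.0052 without rows within 3 Mb of centromeres and ends.

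Counts of rows follow the filter and the fold by construction. The rows at least 2-fold higher and lower and at least 1.5-fold higher and lower (270, 337, 693 and 747) were 463, 681, 1098 and 1316 with a minimum mean of 10 counts, 102, 138, 321 and 355 with 200, and 1209, 1287, 2656 and 2455 without a filter, and 48 and 70 rows were at least 4-fold apart. Arms at least 0.2 higher numbered 3 with the minimum of 10 and 3 without a filter, against 6, and 5p, 7p and 8q were under that threshold in both, and arms at least 0.2 lower numbered 10 from summed counts, against 6. The percent of windows at least 0.3 lower was 22.1 without a filter, and the percent past 0.2 lower was 22.2. Past 0.5 it was 5.79 higher and 4.85 lower. The median over all rows was -0.0222 without a filter, 0.0336 with the filter on the 2 libraries alone, and 0.0322 against the median of PC9-VU and the 6 populations derived from it. The cause of the other changes was not tested. Depth limits rows with few counts, and the thin cover of 6q, 10p and 18q limits what their medians show.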

Other observations

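Further lower stretches lay on 11p and 5q. On 11p, 29 rows between 0.168 Mb and 0.867 Mb had a median of -0.30 in PC9-MGH against PC9-VU, with 7 higher, where the other libraries lay between -0.08 and 0.07. Taken directly against each of them, PC9-MGH had medians from -0.42 (against DS9) to -0.02 (against DS8), so that it hardly differed from DS8. These rows held 1.29% of the counts in PC9-VU and 0.948% in PC9-MGH. On 5q, 27 rows from 151.1 Mb to 181 Mb had a median of -0.33, with 5 higher, where the other libraries lay between -0.09 and 0.02, although their summed counts were nearly equal, at 0.517% in PC9-VU and 0.515% in PC9-MGH.

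Other stretches were seen in more than 1 population. On 13q, 32 rows from 49.44 Mb to 113.7 Mb had a median of 0.34 in PC9-MGH against PC9-VU. The interval of that median spans 0 (-0.03 to 0.53). Over the same rows PC9-BR1 had 0.42 and DS9 -0.44 against PC9-VU. At the start of 19p, 27 rows up to 1.26 Mb had 0.35 in PC9-MGH and 0.43 in DS8. On 8p, 25 rows from 1.82 Mb to 23.43 Mb had -0.30 in both PC9-MGH and PC9-BR1, -0.20 in DS3, -0.13 in DS6, and 0.28 in DS8, 0.37 in DS9 and 0.38 in DS7. On 14q, 34 rows from 54.84 Mb to 74.08 Mb had 0.25 in PC9-MGH, with an interval that spans 0 (-0.12 to 0.46), and 0.40 in PC9-BR1. These comparisons share PC9-VU, and no explanation for them was tested.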
